A study of Mus musculus with 2 samples.

Results

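The ligands and receptors of the tumour necrosis factor (TNF) superfamily were examined in single cells of the mouse colonic lamina propria, the connective tissue layer beneath the gut epithelium. The members were taken by name: every gene of the count tables whose symbol begins with Tnfsf (ligands) or Tnfrsf (receptors), which gave 33 of 31053 genes, 13 with a ligand symbol and 20 with a receptor symbol. Of these, 28 members, 10 ligand symbols and 18 receptors, had at least 50 unique molecular identifiers (UMIs, each standing for 1 captured RNA molecule) over the cells given a type, and their levels are described by cell type. The other 5 were near the limit of detection, with 1 UMI of Tnfsf13, 15 of Tnfsf18, 16 of Tnfrsf19, 43 of Tnfsfm13 and 48 of Tnfrsf22 in these cells.

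Ligands of this family are made as membrane proteins, often as trimers, and are presented or shed by antigen-presenting, innate and stromal cells. Their receptors recruit TRAF adaptors that lead to NF-κB, and those with a death domain can also lead to caspase activation. In the gut the family is known for co-stimulating T cells, for keeping B cells and plasma cells alive, for shaping lymphoid tissue through innate lymphoid cells, and for inflammation driven by TNF itself.

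The cells came from male C57BL/6 mice of 6-8 weeks kept under specific pathogen-free conditions, and each group was 1 droplet library. One library was labelled wild type and the other Lncly6c (1700016P04Rik)-deficient. In the deficient line the whole gene of this long noncoding RNA was removed from C57BL/6J zygotes with CRISPR-Cas9, so every cell of the animal lacks it. The number of animals behind each library is not given in the sources used here. In the file names the genotype words are swapped relative to these labels. The libraries are therefore called wild-type-labelled and deficient-labelled, values are given in that order, and with the file names every direction between them would be exchanged.

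The libraries held 3020 and 6133 barcodes with 23384895 and 54773076 UMIs, and 7 barcode sequences occurred in both. The filters on cells kept 2610 and 5890, whose median depths were 6205 and 7849 UMIs. Cells were assigned to types by markers that include no gene of the family, which placed 5207 of 8500 cells (61.3%) in 18 types, left 2943 (34.6%) without a type and set aside 341 barcodes that carried markers of 2 lineages, with the rest in types of too few cells. Because the names rest on RNA, each type is to be read as "like" its name. The 9 T cell markers summed to 3529 and 3330 CPM (the UMIs of a gene per 1000000 UMIs of the cells summed) in the T cells and to 12.5 and 12.8 CPM in the B cells. The 10 macrophage markers summed to 6614 and 6689 CPM in macrophages and to 174 and 199 CPM in type 2 conventional dendritic cells (cDC2). With 1 library per group no test was possible. The 95% intervals are exact and cover counting error only, not the spread between animals or between cells. A gene is called highest in the type whose interval has the highest lower end, which gives less weight to a few UMIs in a small type. Where counts were low a few UMIs could still decide it, as for Tnfsf10 in endothelial cells, with 2 and 5 UMIs. Levels are compared between cell types for 1 gene at a time, since UMIs from the 3' end do not rank different genes.

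Among the ligands, Tnfsf9, the ligand of the co-stimulatory receptor 4-1BB, was found across the mononuclear phagocytes. Its level was 326 CPM (interval 302 to 352) and 299 CPM (282 to 316) in Ly6c-high monocytes, and 305 CPM (281 to 330) and 257 CPM (244 to 271) in macrophages. In cDC2 it was 295 CPM (281 to 310) and 231 CPM (221 to 242). The interval of the monocytes overlapped those of the macrophages and the cDC2 in the wild-type-labelled library, and lay above both in the other. Mature dendritic cells, which are marked by Ccr7 and Fscn1, had 280 and 173 CPM, and type 1 conventional dendritic cells (cDC1) had 118 and 101 CPM. In T cells other than regulatory T cells Tnfsf9 was at 8.32 CPM (2.27 to 21.3) and 11.9 CPM (6.13 to 20.7).

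The share of cells with a Tnfsf9 UMI was 59.6% and 58% of Ly6c-high monocytes, which had medians of 10023 and 7800.5 UMIs per cell. It was 3.85% and 5.47% in the non-regulatory T cells, at medians of 5842 and 4602 UMIs. With each cell thinned to 1000 UMIs, which left out 2 monocytes in each library, these shares became 22.3% and 20.2% in the monocytes. In the T cells, where 1 cell of the deficient-labelled library was left out, they became 0% and 0.5%, and the 0 of 78 T cells allows a share of up to 3.85% by a limit of 3 counts, or 4.62% by the exact interval. The levels in monocytes thus stood apart from those in T cells at equal depth. Plasma cells of the wild-type-labelled library had 150 CPM, but 13 of those 22 UMIs lay in 1 of 6 cells.

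Tnfsf4, the OX40 ligand that dendritic cells show to activated T cells, was highest in mature dendritic cells. It reached 26 CPM (15.4 to 41.1) and 51.4 CPM (40.7 to 64.1) there, with UMIs in 8 of 48 and 30 of 125 cells. cDC2 had 9.57 CPM (7.21 to 12.5) and 10 CPM (7.88 to 12.5), below the interval of the mature cells in both libraries. NK cells and group 1 innate lymphoid cells had 0 CPM and 18.5 CPM (8 to 36.5), the latter from 8 UMIs in 4 cells. In macrophages it was at 0.494 and 2.05 CPM.

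Tnfsf15, also called TL1A, the ligand of the receptor DR3, had 10 UMIs in the 48 mature dendritic cells of the wild-type-labelled library (14.4 CPM, 6.92 to 26.6) and 1 UMI in the 125 of the other (0.651 CPM, 0.0165 to 3.63). Its levels in cDC2, 5.39 and 4.34 CPM, had overlapping intervals, and macrophages had 2.47 and 4.84 CPM. The cell type with its highest level therefore was not the same in the 2 libraries.

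Tnfsf11, the RANK ligand that innate lymphoid cells use in lymphoid tissue formation, was highest in group 3 innate lymphoid cells (ILC3). These had 785 CPM (503 to 1167) and 1555 CPM (1262 to 1895). The 24 UMIs of the wild-type-labelled library were all in 1 of its 5 ILC3, and that cell dropped out with a stricter marker rule, which left a count of 0. In the deficient-labelled library the 98 UMIs were spread over 10 of 11 cells. Non-regulatory T cells followed at 119 CPM (89.8 to 154) and 79 CPM (62.7 to 98.4), and regulatory T cells had 199 and 35.8 CPM from 6 and 3 UMIs. Among natural killer (NK) cells and group 1 innate lymphoid cells it was 0 and 57.9 CPM, with the 25 UMIs in 2 of 107 cells.

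Tnfsf8, the CD30 ligand, had 89.4 CPM (64.7 to 120) and 70.2 CPM (54.8 to 88.5) in non-regulatory T cells, where 21 of the 43 UMIs of the wild-type-labelled library came from 1 cell. The deficient-labelled ILC3 had 317 CPM, with 17 of 20 UMIs in 1 cell, and 39 CPM under the stricter marker rule. Tnfsf14, also called LIGHT, was highest in neutrophils, at 170 CPM (144 to 199) and 132 CPM (95.2 to 178). Eosinophils, 77 and 9 cells, had 124 and 194 CPM, with intervals that overlapped those of the neutrophils. NK cells and group 1 innate lymphoid cells had 105 and 60.3 CPM, which overlapped the neutrophils in the wild-type-labelled library and lay below them in the other. In B cells it was at 0 and 3.48 CPM.

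Tnfsf13b, or BAFF, the survival factor of B cells, was highest in fibroblasts, at 179 CPM (122 to 252) in 18 cells and 223 CPM (202 to 246) in 239 cells. UMIs were seen in 61.1% and 58.2% of fibroblasts, at medians of 10607 and 7524 UMIs per cell. Macrophages came next among the larger types at 19.8 CPM (14.1 to 26.9) and 14.3 CPM (11.3 to 17.9), below the fibroblasts in both libraries. Non-regulatory T cells had 0 and 0.988 CPM. Of the related factor APRIL (Tnfsf13) there was 1 UMI in all typed cells.

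Tnfsf12, or TWEAK, was found in Ly6c-high monocytes (44.1 and 34.8 CPM) and macrophages (42 and 38.2 CPM), with overlapping intervals. Fibroblasts had 27.9 CPM (9.07 to 65.2) from 5 UMIs and 88.1 CPM (74.8 to 103) from 154 UMIs. This locus is read with care. On chromosome 11 of mm10, Tnfsf12 (69686250 to 69695849) and Tnfsf13 (69682846 to 69685784) lie on the minus strand inside Tnfsfm13 (69682577 to 69696098), the gene of their fusion transcript, and reads shared between them can be given to either or dropped. Tnfsf13os, an antisense gene over the same span and no ligand, had 21.2 and 29.3 CPM in epithelial cells and 6.59 and 7.76 CPM in Ly6c-high monocytes. Tnfsf10, or TRAIL, a ligand that can trigger apoptosis, had its highest level in endothelial cells, 101 CPM and 54.9 CPM, from 2 and 5 UMIs in 2 and 13 cells.

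**Figure D1:**
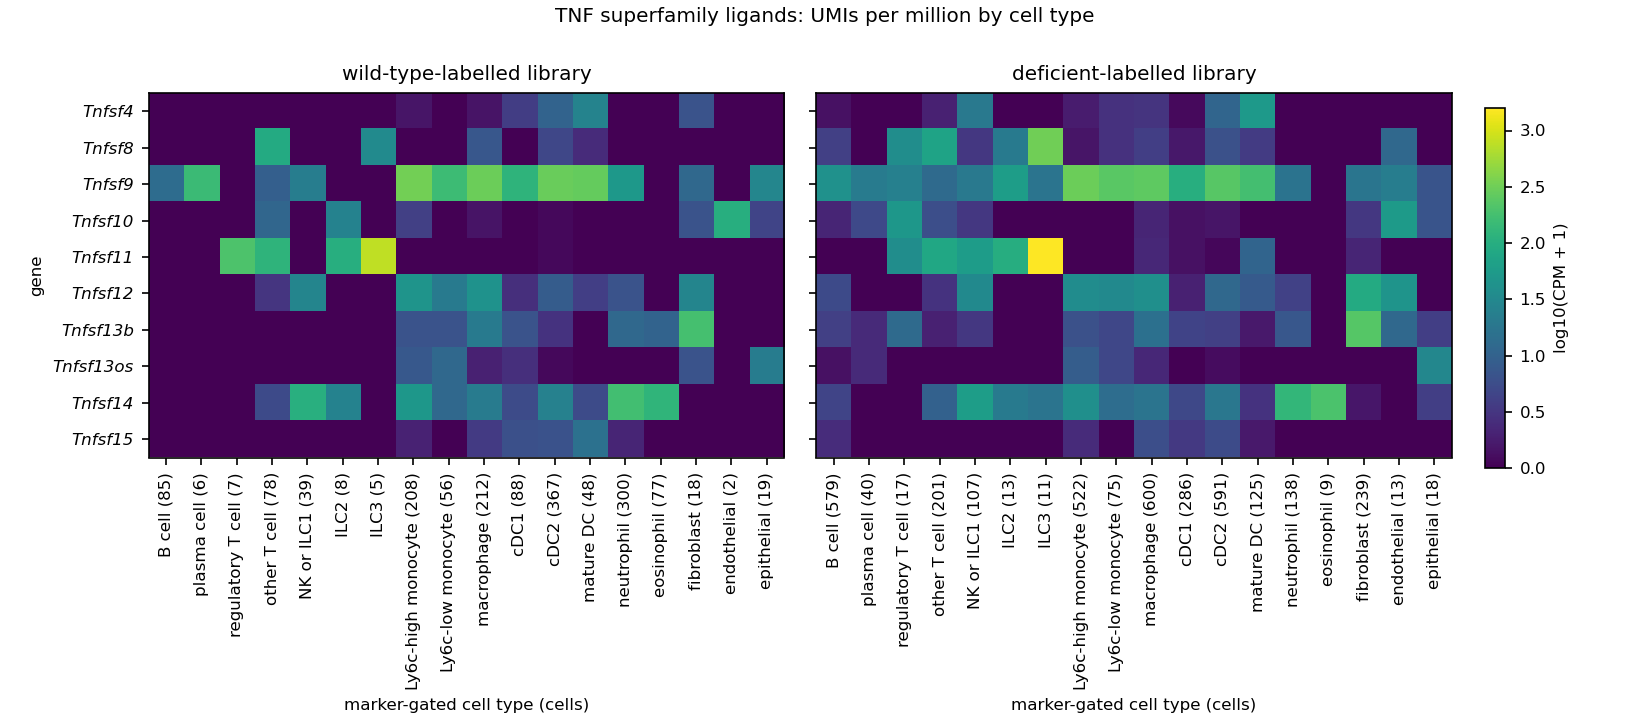
Levels of the 10 described ligand symbols (rows) in 18 marker-defined cell types (columns, cell numbers in brackets) of the wild-type-labelled (left) and deficient-labelled library (right), as log10(CPM + 1) by colour. Tnfsf9 covers the columns from Ly6c-high monocyte to mature DC, Tnfsf11 peaks in ILC3, Tnfsf13b in fibroblasts and Tnfsf14 in neutrophils.

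Among the receptors, those of TNF itself were the most widely found. Tnfrsf1b, the receptor TNFR2, was high in neutrophils at 557 CPM (509 to 608) and 789 CPM (694 to 893), and in Ly6c-low monocytes at 559 CPM (484 to 642) and 638 CPM (572 to 710). Ly6c-high monocytes had 417 and 554 CPM, regulatory T cells 629 CPM (379 to 982) and 453 CPM (321 to 622), and B cells 62.7 and 89.4 CPM. The lowest level among the mononuclear phagocytes was that of cDC1, at 39.3 CPM (30.7 to 49.6) and 59.9 CPM (53.3 to 67). Thinned to 1000 UMIs, 37% and 45.7% of neutrophils had a UMI, against 64.7% and 68.1% unthinned, and 4.55% and 5.94% of cDC1, against 47.7% and 56.3%.

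Tnfrsf1a, the death-domain receptor TNFR1, had 335 CPM (278 to 401) and 224 CPM (186 to 268) in Ly6c-low monocytes, 236 and 212 CPM in Ly6c-high monocytes and 286 and 220 CPM in neutrophils. These 3 types had overlapping intervals in the deficient-labelled library. Fibroblasts had 129 and 154 CPM, cDC1 121 and 126 CPM, and B cells 5.02 and 21.3 CPM. In both libraries cDC1 thus had the lowest TNFR2 level of the mononuclear phagocytes, while in TNFR1 they lay above macrophages (91.9 and 92.1 CPM), cDC2 (103 and 99 CPM) and mature dendritic cells (56.3 and 50.8 CPM). In the wild-type-labelled library the TNFR1 interval of cDC1 overlapped those of macrophages and cDC2.

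The co-stimulatory receptors Tnfrsf4 (OX40), Tnfrsf9 (4-1BB) and Tnfrsf18 (GITR), which are known on activated and regulatory T cells, shared their highest type, the regulatory T cells. These were few, 7 and 17 cells, and were picked by Foxp3 and 3 of 5 markers, none of them a family gene. Tnfrsf4 was at 728 CPM (456 to 1102) and 727 CPM (556 to 934), seen in 7 of 7 and 14 of 17 cells. In the non-regulatory T cells it was at 119 CPM (89.8 to 154) and 60.3 CPM (46.1 to 77.4), and mature dendritic cells came next with 50.5 CPM (35.2 to 70.3) and 25.4 CPM (18 to 34.7). Tnfrsf9 was at 761 CPM (483 to 1142) and 1002 CPM (799 to 1240) in regulatory T cells, though 13 of the 23 UMIs of the wild-type-labelled library came from 1 cell. Tnfrsf18 was at 629 CPM (379 to 982) and 358 CPM (241 to 511).

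These levels depend on the barcodes set aside for 2 lineages. With those kept, a setting chosen after seeing the data, regulatory T cells had 251 and 310 CPM of Tnfrsf4, 322 and 368 CPM of Tnfrsf9 and 260 and 158 CPM of Tnfrsf18. These Tnfrsf9 levels were below the 369 and 501 CPM of NK cells and group 1 innate lymphoid cells with the barcodes set aside. Regulatory T cells may thus not be the highest type of Tnfrsf9 in that setting. In the non-regulatory T cells all 3 receptors were found, with Tnfrsf9 at 177 and 117 CPM and Tnfrsf18 at 119 and 122 CPM. In NK cells and innate lymphoid cells they parted. The deficient-labelled ILC3 had 30 UMIs of Tnfrsf9, in 6 of 11 cells. Tnfrsf9 was at 369 CPM (286 to 468) and 501 CPM (436 to 572) in NK cells and group 1 innate lymphoid cells, with UMIs in 25 of 39 and 68 of 107 cells, while Tnfrsf4 was at 11 and 0 CPM there. Tnfrsf18 was at 66.1 and 88.1 CPM in those cells and at 252 CPM (121 to 463) and 118 CPM (43.4 to 257) in group 2 innate lymphoid cells (ILC2), in which the T cell markers summed to 2039 and 887 CPM. The Tnfrsf18 intervals of the ILC2 overlapped those of the regulatory T cells in both libraries. In B cells 2.35% and 1.04% of cells had a Tnfrsf4 UMI and 0% and 0.518% a Tnfrsf9 UMI, at medians of 4394 and 3579 UMIs. No estimate of free RNA was made. Thinned to 1000 UMIs, Tnfrsf4 was seen in 85.7% and 47.1% of regulatory T cells and in 0% and 0.521% of B cells.

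The dendritic cells also carried these receptors. Tnfrsf18 was at 67.9 and 46.8 CPM in mature dendritic cells and at 31.3 and 26.2 CPM in cDC2, against 5.44 and 5.03 CPM in macrophages, and these 3 levels kept their order in both libraries with intervals that did not overlap. Tnfrsf9 was at 62.1 CPM (44.9 to 83.6) and 54.7 CPM (43.6 to 67.7) in mature dendritic cells and at 1.74 and 5.79 CPM in cDC2. The T cell markers summed to 7.22 and 9.11 CPM in the mature dendritic cells. There 3 and 6 of 9 were found, and Cd3e, Cd3g and Cd28 were at 0 in both libraries.

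All 3 genes lie on chromosome 4, where 9 of the 33 members are found. Their promoters are shown because the 3 receptors share their highest cell type with the barcodes of 2 lineages set aside. They are the RefSeq windows (GRCm38.p6, all on the plus strand) from 250 bases before to 50 bases after a transcript start, at chr4:156013445-156013744 for Tnfrsf4, chr4:156026072-156026371 for Tnfrsf18 and chr4:150927749-150928048 for the second of 2 starts of Tnfrsf9. Capitals mark matches to the NF-κB consensus, searched by that name on both strands.
Tnfrsf4: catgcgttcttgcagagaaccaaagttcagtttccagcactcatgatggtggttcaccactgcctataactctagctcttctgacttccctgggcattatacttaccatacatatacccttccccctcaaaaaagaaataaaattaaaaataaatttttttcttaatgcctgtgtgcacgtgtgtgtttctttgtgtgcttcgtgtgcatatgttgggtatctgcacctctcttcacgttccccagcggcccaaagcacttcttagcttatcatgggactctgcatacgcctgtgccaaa
Tnfrsf18: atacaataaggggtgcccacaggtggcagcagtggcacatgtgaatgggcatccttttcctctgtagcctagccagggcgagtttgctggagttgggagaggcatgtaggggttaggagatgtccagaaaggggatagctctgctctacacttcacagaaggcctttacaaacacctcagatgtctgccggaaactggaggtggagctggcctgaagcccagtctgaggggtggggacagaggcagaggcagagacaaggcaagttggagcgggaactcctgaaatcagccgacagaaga
Tnfrsf9: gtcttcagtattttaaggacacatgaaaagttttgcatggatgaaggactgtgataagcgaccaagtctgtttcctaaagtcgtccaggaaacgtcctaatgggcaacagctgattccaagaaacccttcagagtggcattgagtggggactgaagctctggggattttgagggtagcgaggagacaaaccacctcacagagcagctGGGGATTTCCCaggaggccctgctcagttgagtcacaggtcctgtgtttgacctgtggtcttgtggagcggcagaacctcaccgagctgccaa
This Tnfrsf9 window held 2 overlapping matches, GGGGATTTCCC in all, the window of its first start (chr4:150919905-150920204) held none, and the windows of Tnfrsf4 and Tnfrsf18 held none. Of the 29 windows of the 25 member symbols in the table, 3 had a match (10.3%), those of Tnfrsf8, Tnfrsf9 and Tnfrsf25, against 8.46% of all 32851 windows. The forkhead core GTAAACA was in none of the 29 on either strand, against 3.65% of all windows. The share of the family with the NF-κB consensus was near that of all genes.

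Tnfrsf25 (DR3), the receptor of Tnfsf15, was found in lymphoid cells: 98.1 and 143 CPM in ILC3 from 3 and 9 UMIs, 75.5 and 78.8 CPM in ILC2 from 3 and 4 UMIs, and 31.2 and 14.8 CPM in the non-regulatory T cells from 15 UMIs each. Tnfrsf8 (CD30) was at 7.09 and 9.51 CPM in Ly6c-high monocytes and at 5.04 and 3.42 CPM in cDC2, with 1 UMI in the regulatory T cells of each library. Tnfrsf14 (HVEM), a receptor of Tnfsf14, did not pass 6 CPM in any type of either library. Tnfrsf10b, the TRAIL receptor with a death domain, had 55 UMIs in the typed cells, of which 5 and 8 were in non-regulatory T cells.

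The receptors for BAFF and APRIL followed the stages of the B cell line. Tnfrsf13c (BAFF receptor) was highest in B cells at 82.8 CPM (57 to 116) and 96 CPM (84.4 to 109), and plasma cells had 20.5 and 16.5 CPM. Tnfrsf17 (BCMA), the receptor of long-lived plasma cells, was at 136 CPM (83.3 to 211) and 182 CPM (152 to 216) in the 6 and 40 plasma cells and at 0 and 0.387 CPM in B cells. Tnfrsf13b (TACI) was at 157 CPM (99.4 to 235) and 102 CPM (80.1 to 128) in plasma cells and at 27.6 and 17 CPM in B cells. The change from BAFF receptor to BCMA between the 2 types thus appeared in both libraries.

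Tnfrsf13b and Tnfrsf13c were also found in dendritic cells. cDC2 had 18.3 CPM (14.9 to 22.1) and 13.5 CPM (11.1 to 16.4) of Tnfrsf13b and 11.1 and 7.76 CPM of Tnfrsf13c. The 8 B cell markers summed to 3.31 and 9.08 CPM in cDC2, with Ms4a1, Pax5, Ebf1 and Fcmr at 0 in the wild-type-labelled library and none at 0 in the other. The 9 plasma cell markers summed to 179 and 240 CPM there, with Mzb1 at 0 in the first library and Fkbp11 in the second. Their part in these levels was not tested. In Ly6c-high monocytes Tnfrsf13b was at 17.2 and 10 CPM and Tnfrsf13c at 0 and 0.25 CPM.

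The receptors of RANK ligand and TWEAK were highest outside the lymphocytes. Tnfrsf11a (RANK) was at 46 CPM (37.1 to 56.3) and 40.2 CPM (35 to 45.9) in macrophages, 53.1 and 46.9 CPM in epithelial cells and 33.2 and 40.3 CPM in mature dendritic cells, 3 types whose intervals overlapped in both libraries. Ly6c-high monocytes were lower, at 4.56 and 7.51 CPM. Tnfrsf11b (osteoprotegerin), the secreted decoy of RANK ligand, was at 61.5 CPM (30.7 to 110) and 61.2 CPM (50.2 to 74) in fibroblasts, with at most 2 UMIs in any other type save 4 in 13 endothelial cells. Tnfrsf12a (the TWEAK receptor Fn14) was at 84 and 75.6 CPM in macrophages, 101 and 43.5 CPM in fibroblasts and 88.4 and 58.6 CPM in epithelial cells, with overlapping intervals in the wild-type-labelled library. Lymphocytes had less of it, with 29.1 and 21.7 CPM in non-regulatory T cells and 12.5 and 22.1 CPM in B cells.

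Tnfrsf23 and Tnfrsf26, close paralogs that lie with Tnfrsf22 on chromosome 7 and may share reads, were highest in neutrophils. Tnfrsf23, a decoy receptor of TRAIL, was at 87.2 CPM (68.9 to 109) and 148 CPM (109 to 196) there, and Tnfrsf26, which has no ligand among the members, at 50.3 and 56.6 CPM. Tnfrsf21 (DR6), a death-domain receptor, was at 49.7 CPM (40.3 to 60.5) and 31.3 CPM (26 to 37.3) in Ly6c-high monocytes and at 63.7 and 35.2 CPM in epithelial cells.

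**Figure D2:**
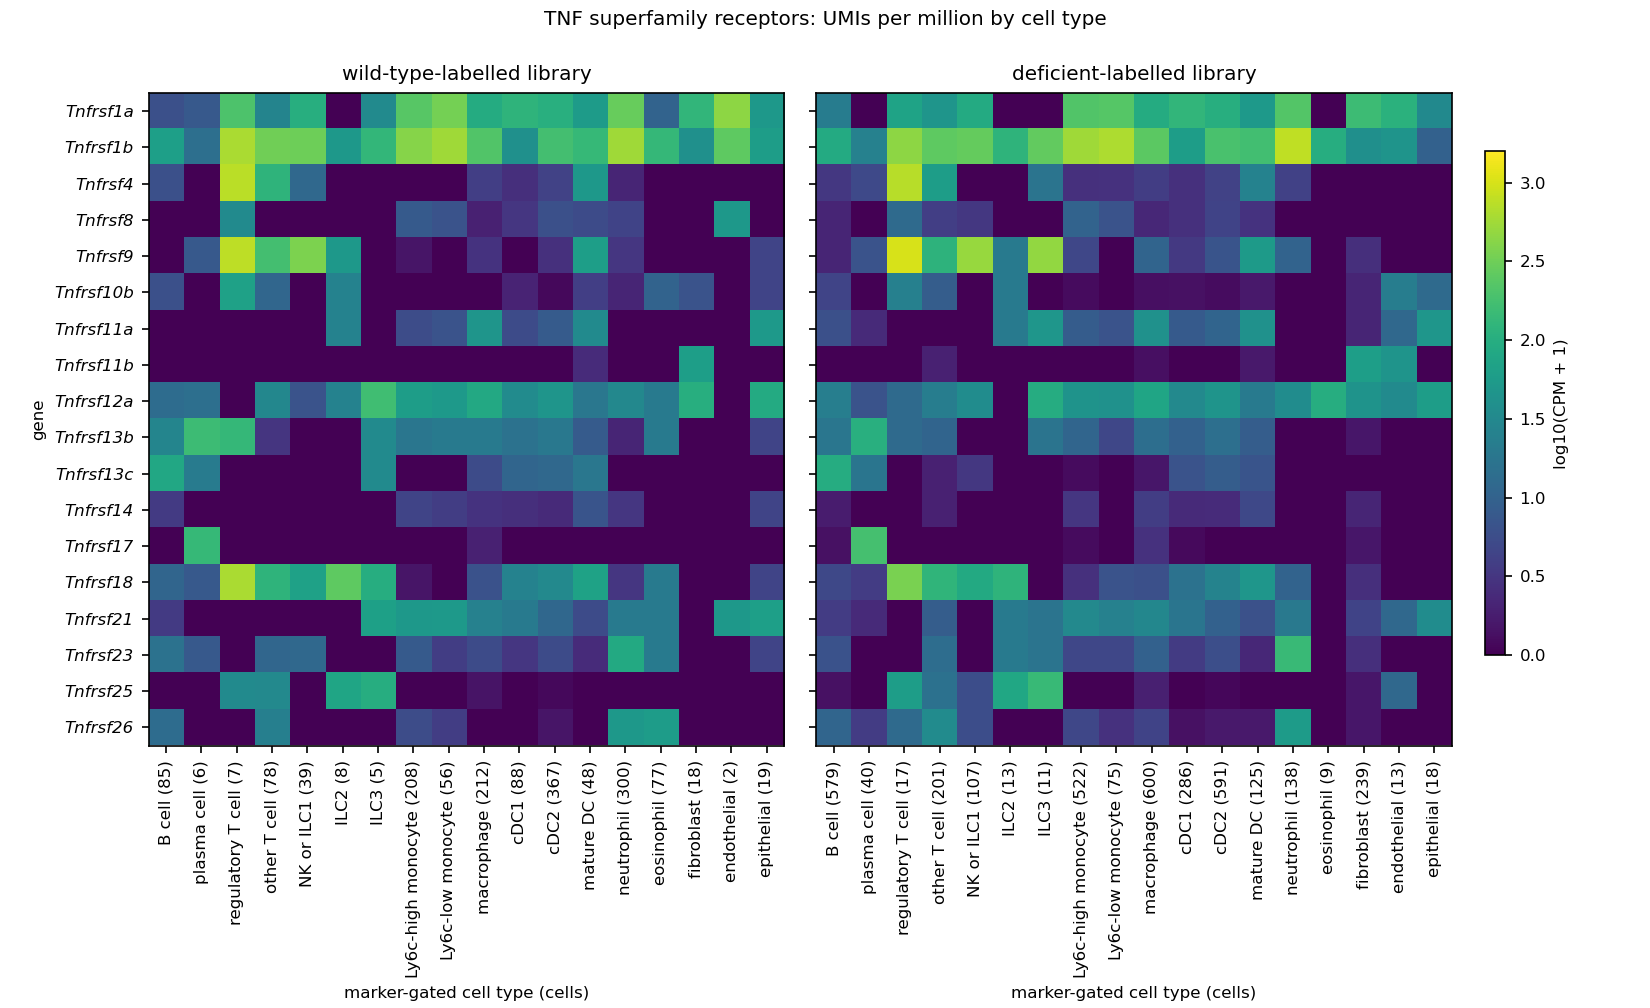
Levels of the 18 described receptors (rows) in 18 marker-defined cell types (columns, cell numbers in brackets) of the wild-type-labelled (left) and deficient-labelled library (right), as log10(CPM + 1) by colour. Tnfrsf4, Tnfrsf9 and Tnfrsf18 peak in regulatory T cells, Tnfrsf17 and Tnfrsf13b in plasma cells, and Tnfrsf1b has signal in every column.

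Set side by side as pairs, the described ligands and receptors were highest in different cell types. Of 15 known pairs among the members, 12 had both sides described. The type with the highest level of the ligand was not that of the receptor in any of the 12, in either library. No share over other gene pairs was computed, so the 12 of 12 has none to be set against. The pairs also share genes, among them Tnfsf13b and Tnfsf11, and some highest types were barely set apart. In the wild-type-labelled library Tnfsf12 was at 44.1 CPM in Ly6c-high monocytes and 42 CPM in macrophages, the highest type of Tnfrsf12a. The highest level of Tnfsf10 in that library rested on 2 UMIs in endothelial cells. OX40 ligand was highest in mature dendritic cells and OX40 in regulatory T cells. 4-1BB ligand was highest in Ly6c-high monocytes and 4-1BB in regulatory T cells, and BAFF in fibroblasts with its 3 receptors in B cells or plasma cells. For RANK ligand, ILC3 led the ligand, macrophages the receptor and fibroblasts the decoy.

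Both sides of a pair could also be found in the same cell type. Mature dendritic cells had OX40 ligand with OX40 (26 and 51.4 CPM of the first, 50.5 and 25.4 CPM of the second) and 4-1BB ligand with 4-1BB (280 and 173 CPM, 62.1 and 54.7 CPM). cDC2 had both sides of these pairs too, with the receptors lower: Tnfsf4 at 9.57 and 10 CPM with Tnfrsf4 at 3.31 and 3.29 CPM, and Tnfsf9 at 295 and 231 CPM with Tnfrsf9 at 1.74 and 5.79 CPM. They also had Tnfsf12 (7.48 and 10.9 CPM) with Tnfrsf12a (45.8 and 43.9 CPM). Whether 1 cell carried both was not tested.

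**Figure D3:**
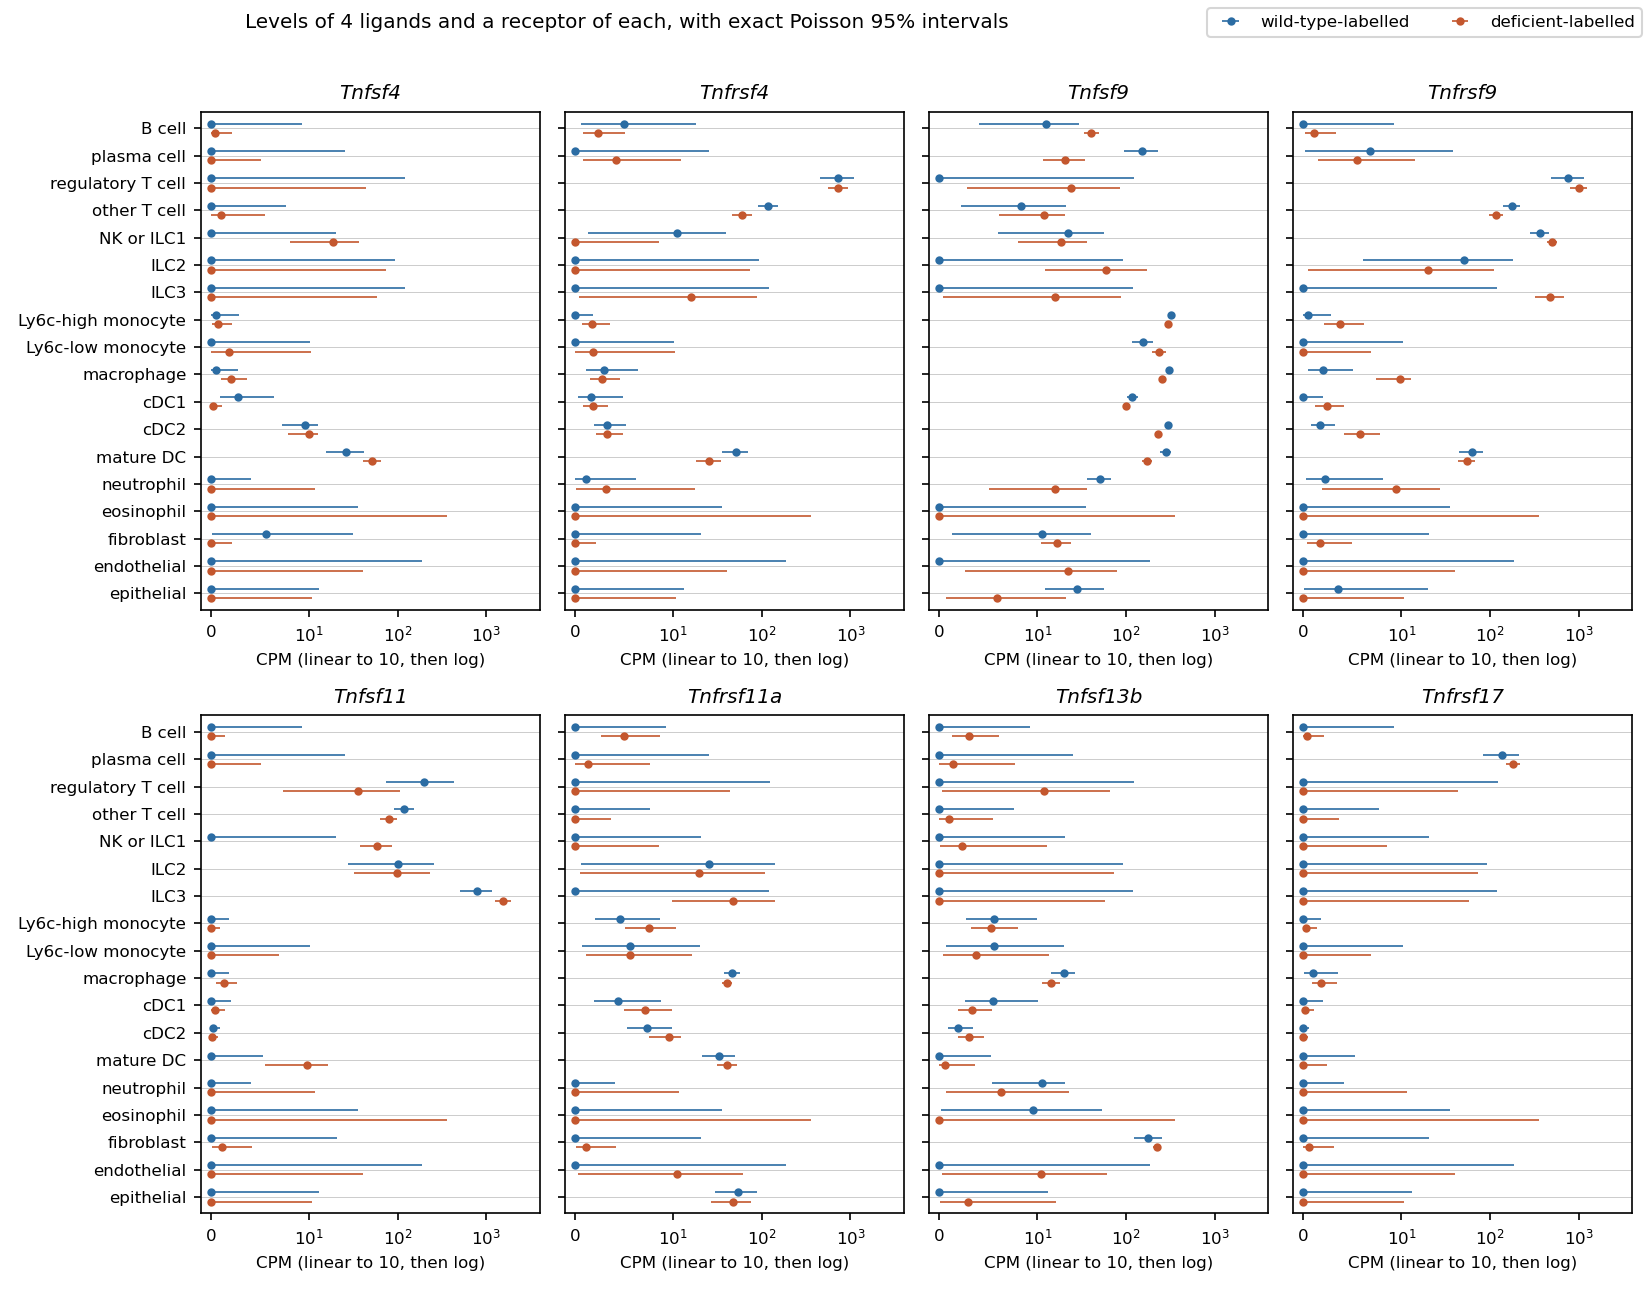
CPM of 4 ligands, each beside 1 of its receptors, in 18 cell types (rows) of the wild-type-labelled (blue) and deficient-labelled library (orange); points are levels, lines exact Poisson 95% intervals, and the axis is linear to 10 and logarithmic above. Tnfsf4 and Tnfrsf4 both have points above 20 CPM in mature DC, and Tnfrsf17 stands above 100 CPM in plasma cells.

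The highest cell type of most members was the same in the 2 libraries. In the 10 types with at least 30 cells in each library, 23 members could be placed, and 18 of them (78.3%) were highest in the same type in both, against 56.4% of all 11293 genes placed. The 5 that were not were Tnfsf12, Tnfsf15, Tnfrsf1a, Tnfrsf13b and Tnfrsf14. Over these 10 types the rank correlation of a member's levels between the libraries had a median of 0.737 over the 28 members, from 0.299 for Tnfsf10 to 0.988 for Tnfrsf1a, and 11 of the 28 were at 0.8 or above. This describes libraries that share marker rules and genes, and no value over all genes was computed. With cells thinned to 1000 UMIs, 13 members could be placed and 9 were highest in the same type, a setting without a share over all genes.

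The comparison between the libraries asks what goes with loss of lncly6c. Within a type, 79 values of 21 members had at least 50 UMIs, and 58 of them differed by less than 1.5-fold. Past 1.5-fold, 11 values (13.9%) were higher and 10 (12.7%) lower in the deficient-labelled library, against 9.26% and 7.49% of the 51078 values of all genes. The median log2 ratio of the members lay between -0.36 in the non-regulatory T cells and 0.66 in the B cells, where that of all genes was -0.01 and 0.02. The counting interval of 17 of the 21 values past 1.5-fold left out 0. Cells of 1 library vary together, so a second library of the same group could differ as much.

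OX40 and its ligand went opposite ways in mature dendritic cells. Tnfsf4 had 18 UMIs in 48 cells and 79 UMIs in 125 cells, a log2 ratio of 0.98 (0.23 to 1.81), and of 0.40 with the stricter marker rule. Tnfrsf4 had 35 and 39 UMIs, a log2 ratio of -0.99 (-1.69 to -0.29). Tnfsf9 was also lower there, at -0.69 (-0.97 to -0.42), but at -0.37 with each cell weighted equally and at 0.31 with cells thinned to 1000 UMIs. Of 8 members measured in these cells 1 was higher and 2 lower, against 16.4% and 7.32% of all genes, whose median log2 ratio was 0.11.

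Of 7 members measured in the non-regulatory T cells 1 was higher and 2 lower, against 9.27% and 8.36% of all genes. Tnfrsf4 was lower, 57 against 61 UMIs at 78 and 201 cells, a log2 ratio of -0.98 (-1.52 to -0.43). It was -0.94 with the barcodes of 2 lineages kept, of which 9 and 136 had passed as T cells, and -0.44 with cells thinned to 1000 UMIs. In that type 1 cell held 19 of the 57 UMIs in the wild-type-labelled library and 16 of the 61 in the other. Tnfrsf9 was lower as well, at -0.60 (-1.02 to -0.18), with a range from -1.86 with thinned cells to -0.55 with the lower mitochondrial limit. Tnfrsf18 was at 0.04 (-0.43 to 0.52). The 5 regulatory T cell markers summed to 1244 and 1118 CPM in these cells, with Foxp3 at 0 in the wild-type-labelled library. In regulatory T cells, too few to compare, Tnfrsf4 was at 728 and 727 CPM.

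4-1BB was higher in macrophages and cDC2 of the deficient-labelled library, from low levels. In mature dendritic cells, which had more of it, its log2 ratio was -0.18 (-0.73 to 0.38). Of 12 members measured in macrophages 2 were higher and 0 lower, against 7.32% and 5.51% of all genes, and of 17 in cDC2 1 was higher and 0 lower, against 5.86% and 5.32%. In macrophages it had 4 UMIs in 212 cells and 53 UMIs in 600 cells, a log2 ratio of 2.32 (0.88 to 4.25). In cDC2 it had 10 and 44 UMIs, a log2 ratio of 1.73 (0.72 to 2.89). The T cell markers moved the same way: they summed to 8.4 and 17.1 CPM in macrophages (6 and 9 of 9 found, with Cd3g, Trbc2 and Cd6 at 0 in the first and none in the second library) and to 5.91 and 10.3 CPM in cDC2 (7 and 9 found, with Cd3e and Cd3g at 0 in the first). The NK cell markers summed to 6.42 and 11.2 CPM in macrophages and 8.52 and 10.8 CPM in cDC2, with Ncr1 and Klra8 at 0 in each. Their part in the result was not tested. After thinning, 0% and 1.02% of macrophages had a Tnfrsf9 UMI.

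In B cells, where 17.3% of all genes were higher and 8.96% lower past 1.5-fold, 3 of 6 members were higher and 1 lower. Tnfsf9 had 5 UMIs in 85 cells and 105 UMIs in 579 cells, a log2 ratio of 1.70 (0.43 to 3.35), and -0.30 with the barcodes of 2 lineages kept. Tnfrsf1a had 2 and 55 UMIs, a log2 ratio of 2.08 (0.16 to 5.17), or 1.13 with each cell weighted equally. Tnfrsf12a was at 0.81 (-0.49 to 2.49), or 0.44 without the deepest cells. Macrophage markers summed to 52.7 and 326 CPM in these B cells, with 6 and 9 of 10 found (C1qc, Mertk, Fcgr1 and Cd163 at 0 in the first library, Mertk in the second). The cDC2 markers summed to 87.8 and 251 CPM, with 6 and 8 of 8 found. Their part in these ratios was not tested. The B cell receptor of BAFF, Tnfrsf13c, was at 0.21 (-0.31 to 0.78).

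In neutrophils 1 of 6 members was higher and 1 lower, against 9.09% and 9.41% of all genes. They had more Tnfrsf23 in the deficient-labelled library, 0.76 (0.21 to 1.30), from 78 UMIs in 300 cells and 47 in 138. With the barcodes of 2 lineages kept, the ratio of Tnfrsf23 was 0.33. Tnfsf9 was lower in neutrophils, with 45 and 5 UMIs and a log2 ratio of -1.68 (-3.37 to -0.35), but 14 of the 45 UMIs lay in 1 cell and the ratio was 0.27 with those barcodes kept. The macrophage markers summed to 98.4 and 154 CPM in neutrophils, with 8 of 10 found and Mertk at 0 in both, and the Ly6c-high monocyte markers to 1905 and 1657 CPM, with 8 of 8 found. Their part in these ratios was not tested. In cDC1 1 of 7 members was higher and 2 lower, against 5.12% and 8.43% of all genes. There Tnfrsf1b was higher, 0.61, with a lower end of 0.23 and a value of 0.15 with thinned cells, and Tnfrsf18 and Tnfrsf13b were lower, -0.73 (-1.28 to -0.17) and -0.77 (-1.50 to -0.03), or -0.52 and -0.32 with the stricter marker rule.

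In Ly6c-high monocytes 0 of 9 members were higher and 2 lower, against 8.58% and 7.67% of all genes. Tnfrsf21 was lower, at -0.67 (-1.06 to -0.27) and at -1.63 with thinned cells, as was Tnfrsf13b, at -0.78 (-1.48 to -0.08). Tnfrsf13b lay below 0 in all 5 types where it was measured, from -0.78 to -0.43. Its interval held 0 in macrophages (-1.11 to 0.08) and in B cells (-0.70, -1.67 to 0.41), where it was the 1 member lower. In cDC2 it was -0.84 to -0.02. No share of all genes below 0 in every measured type was computed. Tnfsf14 lay below 0 in all 4 of its types, from -0.47 to -0.32, but none was past 1.5-fold. Its interval left out 0 in cDC2 (-0.82 to -0.11) and held 0 in monocytes, macrophages and neutrophils. In Ly6c-low monocytes 1 of 3 members was higher and 0 lower, against 11% and 9.76% of all genes. It was Tnfsf9, at 0.62 (0.16 to 1.11), but at -0.34 with the stricter marker rule and -0.13 with thinned cells. In NK cells and group 1 innate lymphoid cells 0 of 4 were past 1.5-fold in either direction, against 8.81% of all genes higher and 10.1% lower. The log2 ratios of Tnfrsf1a were 0.00 in macrophages, 0.05 in cDC1 and -0.06 in cDC2.

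**Figure D4:**
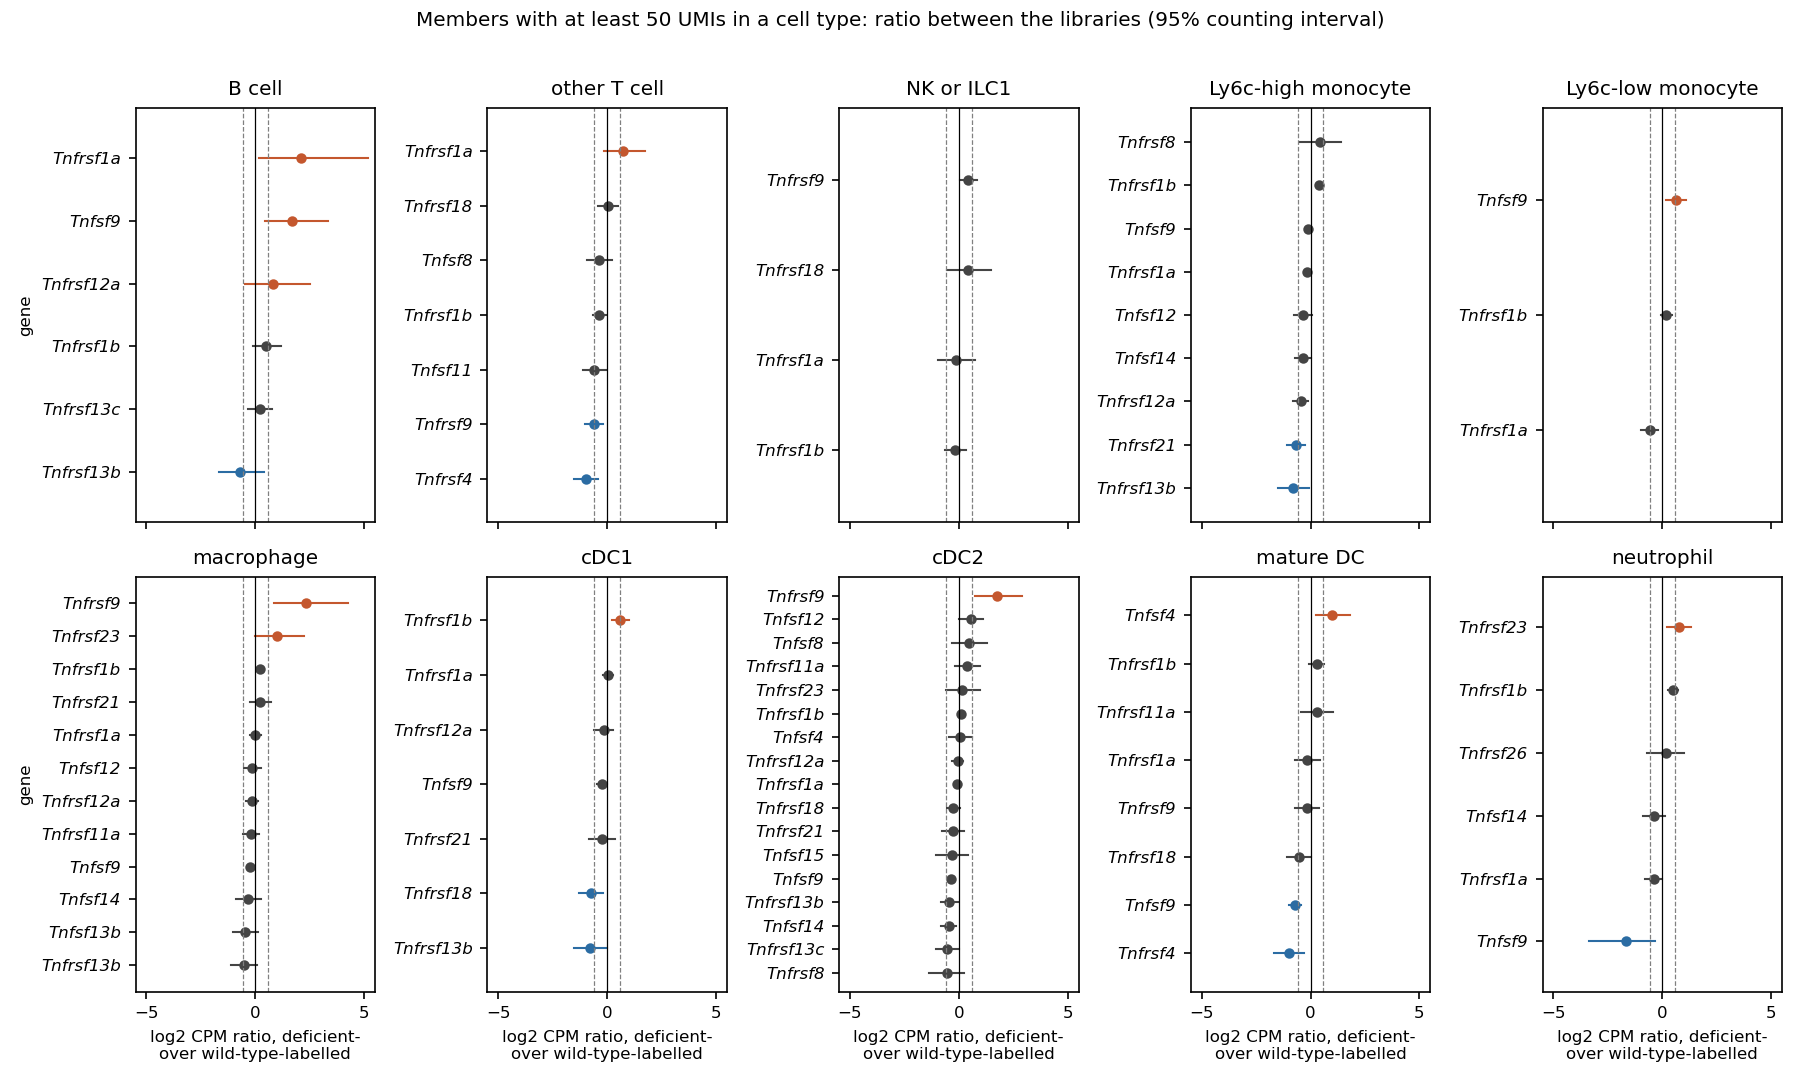
Log2 ratios of the CPM in the deficient-labelled library to that in the wild-type-labelled library for the members (rows) with at least 50 UMIs in each of 10 cell types (panels). Lines are 95% counting intervals, dashed lines mark 1.5-fold, and orange and blue points are past it above and below; Tnfrsf9 in macrophages stands at 2.32, while all 4 members in NK or ILC1 lie within 1.5-fold.

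Family genes without the prefix were examined as 15 partners, of which 40 values in the 10 types were measured: 6 were higher (15%) and 9 lower (22.5%) past 1.5-fold, against 9.26% and 7.49% of the values of all genes. Single ratios of the partners, and of the adaptors below, were not followed over the other settings. Tnf, the ligand of both TNF receptors, was at 1203 and 532 CPM in macrophages, a log2 ratio of -1.18 (-1.26 to -1.10). It was also lower in Ly6c-low monocytes, at 1031 and 554 CPM (-0.90, -1.12 to -0.67), and in cDC1, at 44.9 and 27.8 CPM (-0.69, -1.09 to -0.28), while neutrophils had 614 and 585 CPM and Ly6c-high monocytes 503 and 429 CPM. Its receptors in macrophages were at 0.23 (Tnfrsf1b) and 0.00 (Tnfrsf1a). Cd70, a ligand of T cells, was lower in mature dendritic cells at 69.3 and 20.8 CPM (-1.73, -2.43 to -1.06), the type in which Tnfsf4 was higher. Fasl, the Fas ligand of killer cells, was at 330 and 220 CPM in NK cells and group 1 innate lymphoid cells (-0.59, -1.07 to -0.09), but at 18.7 and 55.3 CPM in non-regulatory T cells (1.56, 0.54 to 2.77). Cd40, the co-stimulatory receptor of antigen-presenting cells, was higher in macrophages at 173 and 262 CPM (0.59, 0.42 to 0.77) and in Ly6c-low monocytes at 58.7 and 123 CPM (1.07, 0.34 to 1.85). Fas, the receptor of Fasl, was lower in mature dendritic cells at 76.5 and 49.4 CPM (-0.63, -1.15 to -0.10). It was higher in cDC2 at 15.1 and 28.7 CPM (0.92, 0.56 to 1.30) and in cDC1 at 4.98 and 8.35 CPM (0.74, -0.31 to 1.97). Ltb, a lymphotoxin subunit, was lower in neutrophils at 141 and 84.9 CPM (-0.73, -1.39 to -0.12). Tnf in non-regulatory T cells was at 0.79 (-0.20 to 1.90), and Lta had at most 4 UMIs in the T cells of either library. Ltbr, the second receptor of Tnfsf14, was highest in fibroblasts at 117 and 67 CPM, and was lower in cDC2 at 21 and 13 CPM (-0.69, -1.09 to -0.30).

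Of the 24 adaptor and NF-κB pathway genes, 186 values were measured, of which 23 were higher (12.4%) and 5 lower (2.69%) past 1.5-fold, against 9.26% and 7.49% of the values of all genes. The counting interval held 0 for 4 of the 23 and 3 of the 5. In macrophages 7 of 22 were higher and 0 lower, against the shares of all genes given above for this type. They included Traf5 at 39 and 84 CPM (1.10, 0.76 to 1.47), Traf3 at 53.9 and 89.2 CPM (0.73, 0.42 to 1.04), and Traf1, an adaptor of 4-1BB that NF-κB induces, at 192 and 306 CPM (0.67, 0.51 to 0.83). The others were Traf6 (0.62), Birc2 (0.60), Ikbkg (1.47) and Nfkb2 (0.61). In B cells 6 of 21 were higher and 1 lower, against 17.3% and 8.96% of all genes. Those higher were Traf1 (0.81), Traf2 (0.81), Traf5 (1.19), Cflar (0.59), Map3k14 (1.34) and Nfkb2 (1.40), and Traf6 was lower (-0.74). All stood beside the macrophage and cDC2 markers given above. In mature dendritic cells 3 of 20 were higher, Traf2 (0.69), Traf3 (0.65) and Traf5 (0.67), against 16.4% of all genes. The counting intervals of Traf2 and Traf5 held 0 in these cells. In Ly6c-high monocytes 3 of 20 were higher, Traf2 (0.61), Map3k14 (0.63) and Relb (0.62), against 8.58% of all genes. In neutrophils 1 of 13 was higher, Nfkb2 (0.59), against 9.09%. Lower were Traf3 in non-regulatory T cells (-0.67), Rel in NK cells and group 1 innate lymphoid cells (-0.62) and Tnfaip3, an inhibitor of NF-κB, in Ly6c-low monocytes (-0.64). In these 3 types that was 1 of 17, 1 of 14 and 1 of 14, against 8.36%, 10.1% and 9.76% of all genes. The median over the 22 was 0.36 in macrophages, and that of all genes was 0.01. Relb, named after its values were seen and a subunit of the noncanonical NF-κB pathway, was higher in cDC2 at 73.8 and 138 CPM (0.90, 0.74 to 1.07) and in cDC1 at 43.2 and 68.6 CPM (0.67, 0.31 to 1.04). In cDC2 1 of 23 adaptors was higher and 0 lower, against 5.86% and 5.32% of all genes. In cDC1 2 of 22 were higher and 1 lower, against 5.12% and 8.43%. Traf1 and Relb were themselves highest in mature dendritic cells, Traf1 at 707 and 786 CPM and Relb at 336 and 325 CPM.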

How the data were processed

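The deposited UMI counts per gene and barcode of both libraries, made by the authors with Cell Ranger, STAR 2.5.1b and mm10 per the submitters' processing notes (software 3.0.2 per the file headers), were used. The kit was a 10x 3' kit, version 3, per the labels' protocols. Cells with at least 500 UMIs, 200 genes and at most 20% mitochondrial UMIs were kept. Each was scored against 21 marker lists, with markers weighted by their rarity, and took the best list if at least 3 markers were detected and it led the next by 1 mean marker weight. Regulatory T cells needed Foxp3 and 3 of 5 markers. Barcodes outside the antigen-presenting types with over 1% of UMIs from 4 MHC class II genes, or with 3 markers of another lineage, were set aside. No doublet caller was run. The scoring rule was set after the data were seen, without the members' values, and the members and lists were chosen with earlier results of these data known.

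UMIs were summed per type and library for types of at least 10 cells. Libraries were compared, in types of at least 30 cells each, for genes with at least 50 UMIs in the type over both, as log2 ratios of CPM with exact conditional binomial 95% intervals. A ratio past 1.5-fold was counted as higher or lower. Levels have exact Poisson intervals and shares follow cells thinned to 1000 UMIs. The code was tested on simulated data. All 28 members with at least 50 UMIs were described by type and the others by count, and a partner or adaptor was named where it pairs with a described member or passed 1.5-fold in a type in which a described member is highest. Alternatives varied the cell filters, marker rule, scaling, depth, minimum count and fold. Promoters came from a RefSeq table of GRCm38.p6. Python 3.11.15, numpy 2.4.6, scipy 1.17.1 and pandas 2.3.3 were used.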

Additional observations from a re-analysis of the deposited data

How the results depend on the processing

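With 1 library per group, agreement between settings says nothing about the spread between animals, and depth limits the members with few UMIs. Of the 79 member ratios, 11 were higher and 10 lower past 1.5-fold. Without the deepest 5% of cells 69 were measured and 5 were higher, while the 19 of the 21 that still had a value kept their direction. With cells thinned to 1000 UMIs, 18 ratios were measured, of which 2 were higher and 1 lower, and 9 of 13 members were highest in the same type in both libraries. With a minimum of 20 UMIs, 110 were measured, 18 higher and 20 lower. With a minimum of 100 UMIs, 58 were measured, 4 higher and 5 lower. At 2-fold 5 were higher and 1 lower. Of the partners, 3 were higher with the mean over cells, 11 at a minimum of 20 UMIs and 2 at 100 UMIs. Of the adaptors, 3 were lower with the stricter marker rule and 2 at a minimum of 100 UMIs. Partners and adaptors were followed as counts only, and not with thinned cells or at 2-fold. Shares over all genes were computed at the main setting only, so the counts at other settings have none to be set against. Tnfsf9 changed sign: in Ly6c-low monocytes to -0.34 with the stricter rule and -0.13 with thinned cells, and in mature dendritic cells to 0.31 with thinned cells. It also did so with the barcodes of 2 lineages kept, a setting chosen after seeing the data, to -0.30 in B cells and 0.27 in neutrophils. The cause was not tested. Limits of 10% mitochondrial UMIs or 1000 UMIs per cell left all 9 counts within 1.5 times. No paired analysis was possible because each group was 1 library.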

Other observations

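The barcodes without a type, 939 and 2004 with medians of 2352 and 8160 UMIs, also carried members of the family. Tnfsf9 was at 271 CPM (258 to 284) and 206 CPM (200 to 213) in them, Tnfrsf1b at 206 and 233 CPM and Tnfrsf1a at 111 and 101 CPM. Tnfsf14, the ligand highest in neutrophils, was at 29.7 and 14.8 CPM. Tnfsf11, the RANK ligand, had 15 UMIs (2.26 CPM, 1.26 to 3.73) and 215 UMIs (12 CPM, 10.4 to 13.7).

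The barcodes that passed as T cells but were set aside, for MHC class II RNA or markers of another lineage, numbered 9 and 136. They had medians of 19397 and 15655.5 UMIs. In the deficient-labelled library they had 234 UMIs of Tnfrsf4 (101 CPM), 243 of Tnfrsf9 (105 CPM) and 145 of Tnfrsf18 (62.5 CPM), together with 462 UMIs of Tnfsf9 (199 CPM), the ligand that the T cells nearly lacked. Whether these are pairs of cells in 1 droplet was not tested.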
